A study of Mus musculus with 9 samples.

Results

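The brush border is the apical membrane of the absorptive enterocyte, folded into microvilli that carry the enzymes of terminal digestion. Of 9 genes of this membrane, 4 encode exopeptidases (Anpep, Dpp4, Enpep and Ace), 2 encode the subunits of the endopeptidase meprin (Mep1a and Mep1b), 2 encode disaccharidases (Lct and Treh) and 1 encodes villin (Vil1), the actin-bundling protein of the microvillus core. They were found by gene symbol in the annotation of the array files, and villin, which the files call Vil, by its RefSeq accession. A probe was found for 8 of the 9 genes, 7 by symbol and 1 by accession, with 1 probe per gene, out of 15674 genes with a symbol on the array. No probe was matched to Lct, the lactase of milk digestion, so its level was not analysed here.

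The exopeptidases take single residues or dipeptides from the ends of the oligopeptides left by gastric and pancreatic proteases, and the short products are taken up by carriers of the same membrane. Meprin cuts inside peptides and proteins. Its β subunit spans the membrane, whereas the α subunit is released or held through the β subunit. Trehalase, which is tethered to the membrane by a lipid anchor, splits trehalose, the sugar of fungi and insects, into glucose.

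RNA of the jejunum was measured in 9 mice on single-colour Applied Biosystems arrays, which are read by chemiluminescence, with 1 mouse per array. All mice were males of the outbred stock OF1, aged 7 weeks and of generation 3 on their feed, with 3 mice each on feed B, feed K and feed G. What the feeds contained is not given by their letters, and no feed was taken as the control. Time of day at sampling was not randomized, so feed and sampling time cannot be told apart, and no array batch is given. Whether mice of a feed shared a litter or a cage is not given either, so the p-values measure only the spread between these mice.

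Values are log2 of the quantile-normalized signal, in which 1 unit is a doubling. A gene was called detected where its signal-to-noise ratio reached 3, the manufacturer's threshold. The share of probes detected per array lay between 33.7% and 48.1%. The enterocyte genes Fabp1, Fabp2, Apoa1, Apoa4 and Krt20 were detected on all 9 arrays, and of 4 genes of the exocrine pancreas with a probe, Cela2a, Pnlip and Prss2 were detected on none and Amy2 on 2. Fabp6, the bile acid-binding protein of the distal small intestine, stood apart: its log2 signal was 15.81, 4.67 and 17.84 in mice 7, 8 and 10 of feed B, 8.92, 12.19 and 11.81 in mice 1, 3 and 4 of feed K, and 8.10, 8.96 and 19.51 in mice 4, 8 and 11 of feed G. It was detected on 8 arrays, the exception being that of mouse 8 of feed B. Levels of RNA in a piece of gut depend on the number of cells of a type and on the RNA per cell, which cannot be told apart here.

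The bases before the transcription start are shown for Treh, Ace and Mep1a, because Treh and Ace went up and down together over the mice and Mep1a did not follow them. In the table of RefSeq promoters for GRCm38.p6, 1 chromosome was left out of the search. Of the 9 genes, 8 had a start in the rest, Mep1b being the exception, so whether the table holds Mep1b was not checked. Each sequence gives the 250 bases before the start, 5′ to 3′ on the strand of the gene. Ace has 2 starts in the table and the upstream one is shown. It lies at chr11:105967698-105967947 on the plus strand, Treh at chr9:44672983-44673232 on the plus strand and Mep1a at chr17:43502774-43503023 on the minus strand.
Treh: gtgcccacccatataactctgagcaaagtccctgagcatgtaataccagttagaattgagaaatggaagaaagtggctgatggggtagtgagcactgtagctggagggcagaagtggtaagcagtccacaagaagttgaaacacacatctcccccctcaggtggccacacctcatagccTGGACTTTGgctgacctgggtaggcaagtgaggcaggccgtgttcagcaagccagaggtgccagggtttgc
Ace: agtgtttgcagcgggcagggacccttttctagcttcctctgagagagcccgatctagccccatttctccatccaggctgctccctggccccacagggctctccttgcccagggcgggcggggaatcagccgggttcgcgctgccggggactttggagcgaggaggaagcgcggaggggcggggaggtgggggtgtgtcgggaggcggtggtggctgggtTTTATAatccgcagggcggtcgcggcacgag
Mep1a: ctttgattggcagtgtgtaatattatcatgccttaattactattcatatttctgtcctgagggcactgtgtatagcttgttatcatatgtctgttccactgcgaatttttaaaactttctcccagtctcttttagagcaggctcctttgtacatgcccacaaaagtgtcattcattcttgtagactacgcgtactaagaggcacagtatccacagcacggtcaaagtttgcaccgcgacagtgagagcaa
Capitals mark matches, on either strand, to short strings of letters. These were GTTAAT for part of the site of HNF1, TTTATG for the CDX factors, AGATAA for the factors of the GATA family, CAAAGTCCA for HNF4, and TATAAA for the box that positions the polymerase. Treh held 1 match, TGGACTTTG, the complement of the HNF4 letters, from base -71 to base -63, where base -1 is the last before the start. The HNF4 letters occurred in 0.384% of 32817 such windows. Ace held 1 match to TATAAA, on the complementary strand from base -31 to base -26, and 12.4% of windows held one. Mep1a held no match. The HNF1 letters occurred in 6.44%, the CDX letters in 10.8% and the GATA letters in 9.99% of windows, and no matches overlapped in these 3 sequences. A match of letters is a description and was not tested as a binding site.

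All 8 measured genes were detected on all 9 arrays, with no failed spot. Villin varied least between mice and the meprin α subunit and angiotensin-converting enzyme most, as the plot of the log2 signals by mouse shows.

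**Figure D1:**
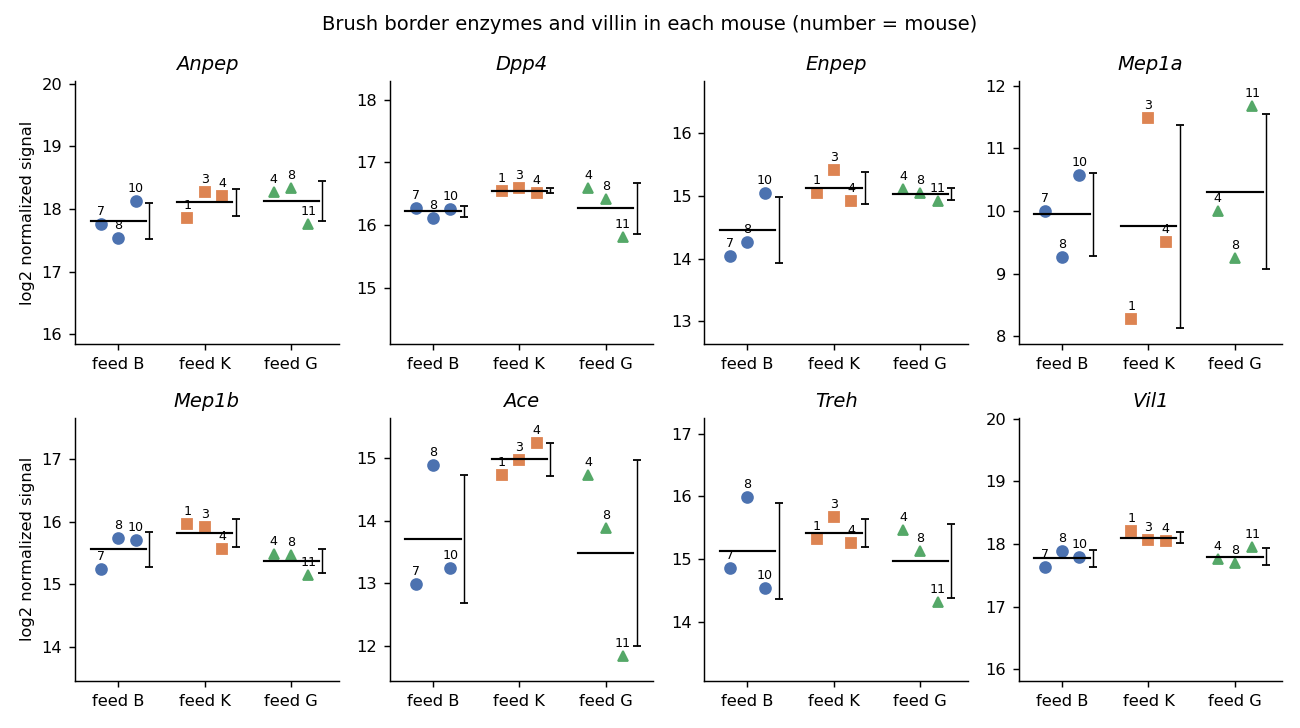
Log2 normalized signal (y axis, the same height of 4.2 units in every panel) of the 8 measured genes in each mouse, by feed (x axis). Points are mice, labelled by number, the line is the mean of a feed and the bar beside it is 1 SD (n = 3); Vil1 spans 17.63 to 18.20, whereas Ace spans 11.84 to 15.24 and Mep1a 8.28 to 11.67.

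Anpep encodes aminopeptidase N, which removes neutral residues from the N terminus of peptides. Its log2 signal was 17.76, 17.54 and 18.12 in mice 7, 8 and 10 of feed B, 17.86, 18.26 and 18.20 in mice 1, 3 and 4 of feed K, and 18.28, 18.34 and 17.75 in mice 4, 8 and 11 of feed G. The lowest mouse was on feed B and the highest on feed G, and all 3 feeds overlapped. The highest signal was 1.74-fold the lowest, with an SD of 0.29 (n = 9).

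Dpp4 encodes dipeptidyl peptidase IV, which removes dipeptides that end in proline or alanine. Its log2 signal was 16.27, 16.11 and 16.26 on feed B, 16.54, 16.58 and 16.52 on feed K, and 16.58, 16.41 and 15.81 on feed G, with the mice in the same order. The 3 mice of feed K lay above all mice of feed B and within 1.05-fold of each other, whereas mouse 11 of feed G was the lowest of the 9. The range over all mice was 1.72-fold, and without that mouse the SD fell from 0.26 to 0.18.

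Enpep encodes aminopeptidase A, which removes acidic residues from the N terminus. Its log2 signal was 14.05, 14.27 and 15.04 on feed B, 15.04, 15.42 and 14.91 on feed K, and 15.11, 15.05 and 14.92 on feed G. Mice 7 and 8 of feed B were the lowest, and mouse 10 of that feed lay among the mice of the other feeds. The range was 2.59-fold (SD 0.43, n = 9).

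Ace encodes the angiotensin-converting enzyme, a dipeptidyl carboxypeptidase that acts on the other end of the peptide. Its log2 signal was 12.98, 14.88 and 13.25 on feed B, 14.72, 14.97 and 15.24 on feed K, and 14.73, 13.88 and 11.84 on feed G. Mice of feed B and feed G each held high and low values, and the 3 mice of feed K were close together at the upper end, with mouse 8 of feed B and mouse 4 of feed G among them. The range was 10.5-fold (SD 1.15, n = 9), and without mouse 11 of feed G the SD was 0.84.

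Mep1a, the meprin α subunit, had a log2 signal of 10.01, 9.26 and 10.57 on feed B, 8.28, 11.49 and 9.50 on feed K, and 10.00, 9.25 and 11.67 on feed G. High and low mice occurred on every feed, and the lowest and the second highest were both on feed K, 9.26-fold apart. The range over all mice was 10.5-fold (SD 1.10, n = 9). It had the lowest signal-to-noise ratio of the 8 on any array, 3.74 in mouse 1 of feed K, and reached 39.51 in mouse 11 of feed G, so that the low values lie near the detection limit.

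Mep1b, the β subunit of the same enzyme, had a log2 signal of 15.24, 15.73 and 15.70 on feed B, 15.97, 15.92 and 15.56 on feed K, and 15.48, 15.47 and 15.15 on feed G. The mice of feed G all lay below those of feed K, and feed B overlapped with both. The range was 1.76-fold (SD 0.28, n = 9). The subunits did not follow each other over the mice (Spearman rho = -0.37, two-sided exact permutation p = 0.336).

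Treh, the trehalase, had a log2 signal of 14.85, 15.99 and 14.54 on feed B, 15.31, 15.66 and 15.25 on feed K, and 15.45, 15.13 and 14.31 on feed G. The highest mouse was mouse 8 of feed B and the lowest mouse 11 of feed G, and every pair of feeds overlapped. The range was 3.20-fold (SD 0.53, n = 9).

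Vil1 had a log2 signal of 17.63, 17.89 and 17.80 on feed B, 18.20, 18.06 and 18.04 on feed K, and 17.75, 17.70 and 17.95 on feed G. The mice of feed K lay above all 6 others. Its range was 1.49-fold (SD 0.19, n = 9), the smallest of the 8 genes.

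The study selected genes by their uniformity between samples, and the spread of the members can be read against the other genes detected in all mice. Vil1 lay at percentile 17.8 of the SD among 5887 genes detected on all 9 arrays, and Dpp4, Mep1b and Anpep at percentiles 41.0, 46.2 and 48.4. Enpep at 76.3 and Treh at 86.8 varied more than most genes, and Mep1a at 98.6 and Ace at 98.8 were near the upper end. For 4 of the 8 members (Anpep, Dpp4, Mep1b and Vil1) the highest signal was no more than 2-fold the lowest, as it was for 57.9% of these genes. The median SD of the members was 0.36 and that of all these genes 0.29.

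**Figure D2:**
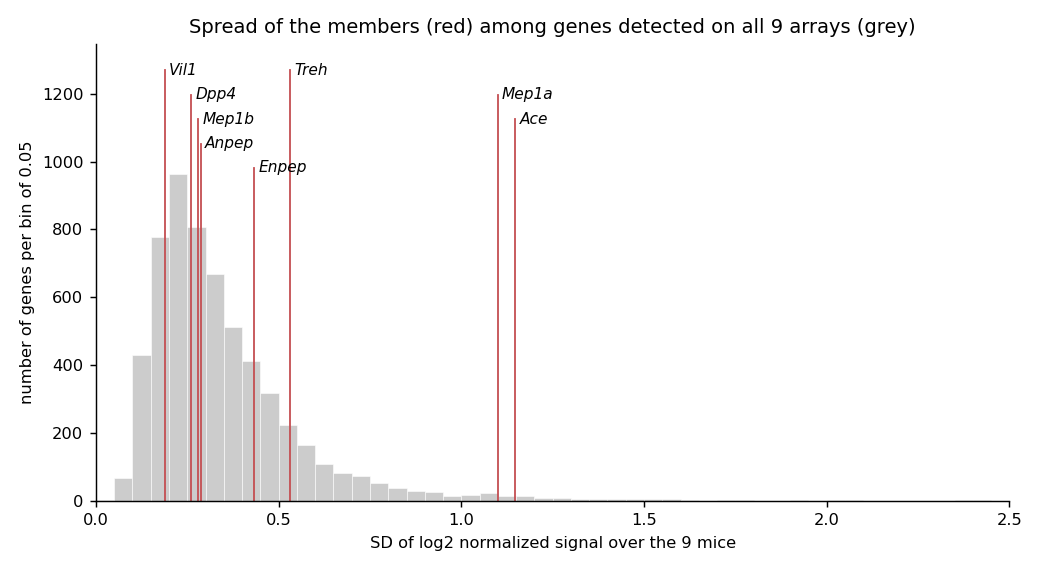
Number of genes (y axis) by SD of the log2 signal over the 9 mice (x axis) for the 5887 genes detected on all arrays, in grey bins of 0.05. Red lines mark the 8 measured members: Vil1 at 0.19 lies left of the peak of the distribution, and Mep1a at 1.10 and Ace at 1.15 lie in its right tail.

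These counts depend on the scaling of the arrays. With each array scaled to the same median, none of the 8 members and 24.8% of the 5887 genes stayed within 2-fold, and the median SD of the members was 0.51, compared with 0.44. In the table of the whole series, 1 of the 8 members and 36.6% of the genes did. A ratio to villin on the same array cannot be moved by a factor on the whole array, but quantile normalization can move it. In the quantile-normalized values, the log2 ratio had an SD of 1.08 for Ace and of 1.13 for Mep1a. It was 0.22 for Mep1b and 0.29 for Dpp4. Ace and Mep1a therefore varied between mice relative to villin as well. By the measure of the study, the coefficient of variation after centring and scaling each array, Vil1 had 1.57% and rank 24 of 15674 genes, Dpp4 3.31%, Anpep 3.36%, Mep1b 3.59%, Enpep 6.82%, Treh 7.70%, Ace 20.5% and Mep1a 77.6%. That measure divides by the distance of a gene from the mean of its array, which makes it small for bright genes.

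The feeds were compared in a single limma fit over all genes detected on at least 3 arrays. None of the 8 genes passed the F test over the 3 feeds (limma, adjusted p between 0.903 and 0.968), and 0% of the 9652 genes tested did. At an unadjusted p below 0.05, 0 of the 8 members passed, compared with 5.37% of all genes. The share of the variance between mice that lay between feeds was 69.9% for Vil1, 53.0% for Enpep and 48.2% for Mep1b, compared with 36.9% for Ace, 13.4% for Treh and 4.90% for Mep1a. Part of the variance falls between 3 groups of 3 mice without any feed effect, and the share over all genes was not computed. An exact permutation test of the F statistic gave p = 0.036 for Vil1 over the 280 splits of the mice, which was 0.860 after adjustment over all genes. The other members had an exact permutation p between 0.143 and 0.864, and the smallest p that this design allows is 0.00357.

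**Figure D3:**
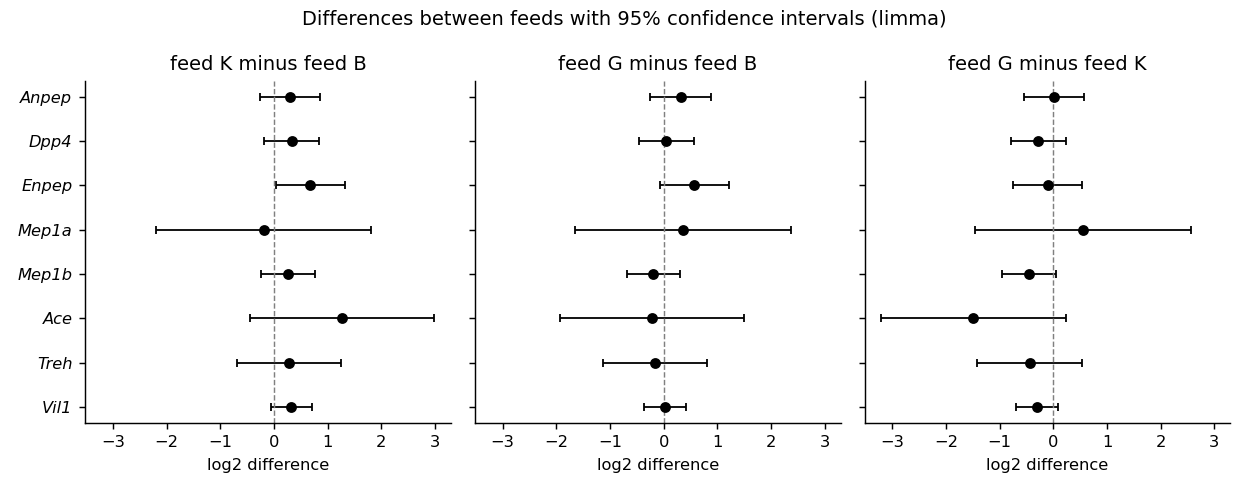
Difference in mean log2 signal (x axis) between feeds for the 8 measured genes (y axis), with 95% confidence intervals from limma (3 mice per feed); the panels share feeds. All intervals include 0 except that of Enpep for feed K minus feed B, and those of Ace and Mep1a are the widest.

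Between feed K and feed B, 7 of the 8 genes were higher on feed K by their mean, with a median log2 difference of 0.31, compared with 0.05 over all genes tested. Enpep, with a mean of 14.45 ± 0.52 on feed B and 15.13 ± 0.26 on feed K (SD, n = 3 each), had the smallest p of the 8. Its log2 difference was 0.67 (SE 0.28, limma, adjusted p = 0.786), and it was the only 1 of the 8 with an unadjusted p below 0.05, which 6.31% of all genes had. Without mouse 7 of feed B the difference was 0.47, and without mouse 10 of feed B it was 0.97. Dpp4 and Vil1, 2 of the 8, were higher in every mouse of feed K than in any mouse of feed B, which held for 6.26% of all genes, and 0 of the 8 were lower in every mouse, against 3.68%. Their differences were 0.33 (SE 0.22) and 0.33 (SE 0.17), with adjusted p of 0.845 and 0.802 (limma). That for Ace was 1.27 (SE 0.75, limma, adjusted p = 0.828), about 2.42-fold, and its 95% interval ran from -0.45 to 2.99. The only member with a lower mean on feed K was Mep1a, at -0.19 (SE 0.87), and with median scaling its difference was 0.20.

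Between feed G and feed B, 5 genes had a higher and 3 a lower mean on feed G, with a median log2 difference of 0.04, compared with 0.06 over all genes. No member passed an unadjusted p below 0.05, compared with 5.74% of all genes. None lay entirely above or below on feed G, compared with 6.3% and 4.65% of all genes. With median scaling 4 of the 8 (Anpep, Dpp4, Enpep and Vil1) lay entirely above on feed G, and only Enpep did in the series table. The shares of all genes were not computed under these settings, where the median difference over all genes was 0.53 and 0.30. Enpep had the largest mean difference of the 8, at 0.57 (SE 0.28, limma, adjusted p = 0.871). It was 0.37 without mouse 7 of feed B and 0.87 without mouse 10. The means of Vil1 were 17.77 ± 0.13 and 17.80 ± 0.13 (SD, n = 3 each), and the 95% interval of their difference ran from -0.36 to 0.42.

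Between feed G and feed K, 6 of the 8 genes had a lower mean on feed G, with a median difference of -0.29, compared with -0.01 over all genes. No member passed an unadjusted p below 0.05, compared with 4.54% of all genes. Mep1b and Vil1 were lower in every mouse of feed G than in any mouse of feed K, which held for 7.36% of all genes, and no member was higher in every mouse, compared with 6.31%. Mep1b differed by -0.45 (SE 0.22, limma, adjusted p = 0.960) and Vil1 by -0.30 (SE 0.17, limma, adjusted p = 0.960). The difference of Ace was -1.49 (SE 0.75, limma, adjusted p = 0.960), and its 95% interval ran from -3.21 to 0.23. It was -0.66 without mouse 11 of feed G and -2.11 without mouse 4. All pairs share feeds, so the lower values on feed G and the lower values on feed B both rest on the same 3 mice of feed K. With median scaling or the series table, Dpp4, Vil1 and Ace lay above feed B on feed K. Between feed G and feed K, Mep1b and Vil1 then overlapped and Ace did not. The shares of all genes were not computed under these settings. The median difference of feed K minus feed B over all genes was 0.41 and 0.21 there.

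Over the 9 mice the 8 genes made 28 pairs, and 4 of them, all positive, had a Spearman rho with a two-sided exact permutation p below 0.05. Over the 17325441 pairs of genes detected on every array, 4.21% had such a positive rho and 3.21% a negative one. The values of a pair share the array, its depth of signal and its scaling.

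**Figure D4:**
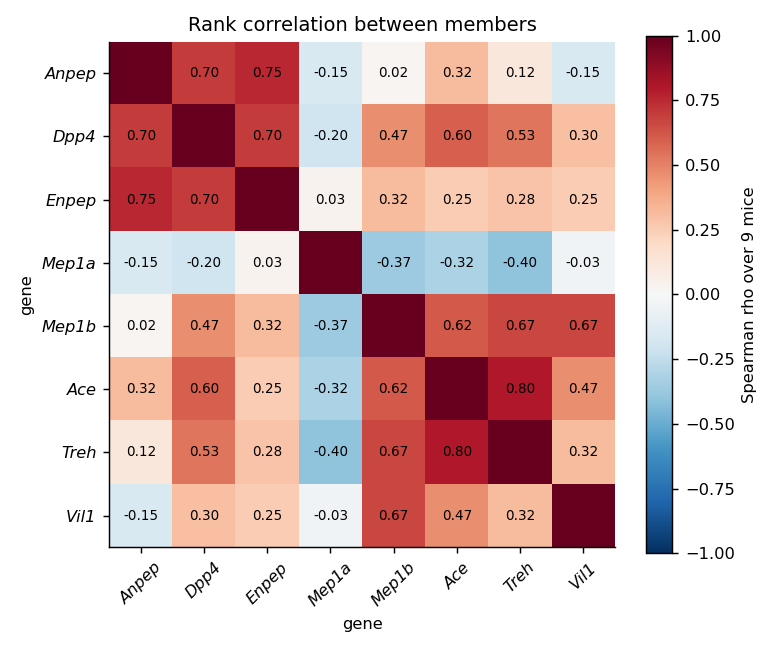
Spearman rho over the 9 mice for each pair of the 8 measured genes (both axes; colour scale from -1 to 1). Anpep, Dpp4 and Enpep form a block of 0.70 to 0.75, Ace and Treh reach 0.80, and Mep1a is at or below 0.03 with every other gene.

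Ace and Treh followed each other most closely. Pearson's r was 0.87 (exact permutation p = 0.00135) and Spearman's rho 0.80 (exact permutation p = 0.0138, 0.492 after adjustment over all pairs of genes). Both genes were lowest in mouse 11 of feed G and low in mice 7 and 10 of feed B. Without the 2 mice farthest from the median of Ace, r was 0.78, and with the feed means subtracted it was 0.89 (exact permutation p = 0.0417). The rank correlation no longer passed without mouse 11 or mouse 8 of feed G, at 0.71 each (exact permutation p = 0.0576), nor with median scaling, at 0.68 (exact permutation p = 0.0503).

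The aminopeptidases Anpep and Enpep had a rho of 0.75 (r = 0.74, exact permutation p = 0.0255 for rho and 0.0159 for r), and each had a rho of 0.70 with Dpp4 (exact permutation p = 0.0433). After adjustment over all pairs of genes these were 0.537 and 0.583. With the feed means subtracted, r was 0.62 for Anpep with Enpep, 0.72 for Anpep with Dpp4 and 0.23 for Dpp4 with Enpep, and none of the 3 passed (exact permutation p between 0.0694 and 0.269). Without the 2 mice farthest from the median, r was 0.72, 0.41 and 0.64. Under the 12 alternatives, including each mouse left out, Anpep with Enpep lost its call in 5, Anpep with Dpp4 in 8 and Dpp4 with Enpep in 6. Vil1 had a rho between -0.15 and 0.47 with all members but Mep1b, where it was 0.67 (exact permutation p = 0.0589).

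The same mice that were low in Ace and Treh were high in Fabp6. This comparison was chosen after the values were seen. Treh had an r of -0.90 with Fabp6 (exact permutation p = 0.00139) and a rho of -0.82 (exact permutation p = 0.0108, 0.330 after adjustment over all genes). Mouse 8 of feed B, where Fabp6 was not detected, enters these values and had the highest Treh signal. Without that mouse and mouse 11 of feed G, the 2 farthest from the median of Fabp6, r was -0.74. With the feed means subtracted it was -0.93 (exact permutation p = 0.0463). Ace had an r of -0.79 and a rho of -0.58 (exact permutation p = 0.0114 and 0.108). Its r was -0.66 without the same 2 mice and -0.90 with the feed means subtracted (exact permutation p = 0.0833).

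Mep1a went the other way, with an r of 0.68 and a rho of 0.77 (exact permutation p = 0.0459 and 0.0214, 0.377 for rho after adjustment). Without the 2 farthest mice its r was 0.50, and without mouse 11 of feed G its rho was 0.67 (exact permutation p = 0.0831). Genes outside the members had like values. Of 5 enterocyte genes, Fabp1 had an r of -0.82 and a rho of -0.75 with Fabp6 (exact permutation p = 0.00615 and 0.0255) and Apoa4 -0.79 and -0.68 (exact permutation p = 0.0140 and 0.0503), whereas Fabp2, Apoa1 and Krt20 had an r of -0.13, 0.25 and 0.44. Fabp1 was lowest in mouse 11 of feed G and next lowest in mice 10 and 7 of feed B. Of 12 genes of microvillus structure, Cobl had an r of -0.85 and a rho of -0.92 (exact permutation p = 0.00470 and 0.00131) and Ezr -0.78 and -0.62 (exact permutation p = 0.0152 and 0.0857), and the r of the others lay between -0.62 and 0.54. The rho of the other 5 members with Fabp6 lay between -0.45 and -0.05. A positive rho with Fabp6 at an exact permutation p below 0.05 was found for 2.41% of the genes detected on all arrays, and a negative one for 8.02%.

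**Figure D5:**
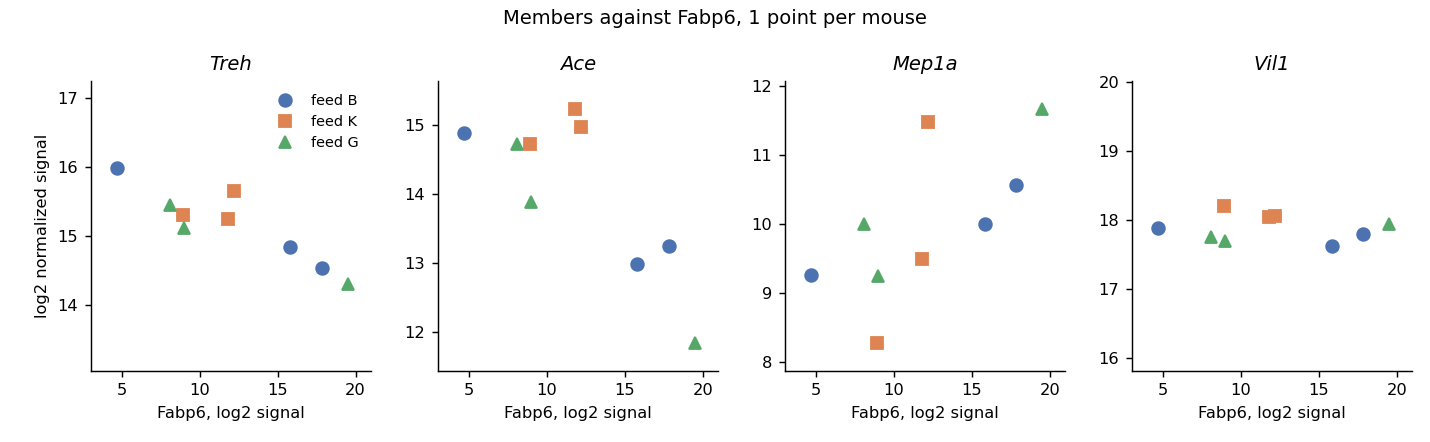
Log2 signal of Treh, Ace, Mep1a and Vil1 (y axes, the same height in every panel) against the log2 signal of Fabp6 (x axis), 1 point per mouse, with feeds by colour and shape. Treh and Ace are low in the 3 mice with Fabp6 above 15, the levels of Mep1a in those mice are 10.01, 10.57 and 11.67, and Vil1 stays between 17.63 and 18.20.

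Slc10a2, the bile acid carrier of the distal small intestine, was detected on 6 arrays. Its log2 signal was highest in mouse 11 of feed G at 12.66 and in mouse 10 of feed B at 12.05. No correlation is given for it, because it was detected on 6 arrays only, whereas Fabp6 was detected on 8. The summed signal of both distal genes ranged from 225 to 238637 on feed B, from 629 to 5027 on feed K and from 367 to 753353 on feed G, so high mice occurred on feeds B and G. Slc40a1 and Gata4 stood for the proximal small intestine. Slc40a1 was highest in mouse 11 of feed G at 10.43 and in mice 7 and 10 of feed B at 10.17 and 10.11. The r of Gata4 with Fabp6 was 0.016. With median scaling the rho of Treh with Fabp6 was -0.65 (exact permutation p = 0.0666). The part of these genes in the spread of the members was not tested.

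Markers of other cells also differed between mice. The summed signal of 3 Paneth cell genes (Lyz1, Mmp7 and Ang4, all detected on all arrays) ranged from 128491 to 320644 on feed B, from 105576 to 182769 on feed K and from 29672 to 283228 on feed G, with mouse 11 of feed G the lowest. Those of 5 enterocyte genes, in the same order of feeds, ranged from 2120256 to 3637311, from 2953281 to 3442486 and from 2662664 to 3816228. The part of these cells in the values of the members was not tested.

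Other genes of the membrane were taken from fixed lists. Of 10 other peptidases, 8 had a probe and 5 were tested. No gene of the 4 fixed lists passed the F test after adjustment. Ggt1, which splits glutathione, had means of 13.71 ± 0.20 on feed B, 14.27 ± 0.18 on feed K and 14.12 ± 0.06 on feed G (SD, n = 3 each), with an unadjusted p below 0.05 in the F test, which 5.37% of all genes had (limma, adjusted p = 0.894). Folh1, which removes glutamate from dietary folate, was detected on no array. The log2 difference of feed K minus feed B was 1.17 for Mme, 0.56 for Ggt1, -0.15 for Dpep1 and -0.27 for Xpnpep2 (limma, adjusted p between 0.773 and 0.957). Mme had a range of 4.74-fold over the mice. The r with Fabp6 was -0.60 for Mme, -0.23 for Ggt1, 0.09 for Dpep1 and -0.04 for Xpnpep2.

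Of 12 other hydrolases and nutrient carriers, 6 had a probe and 5 were tested. The sucrase-isomaltase Sis and the maltase Mgam had none. Slc5a1, the sodium-coupled glucose carrier, had means of 15.39 ± 0.31, 16.53 ± 0.06 and 16.34 ± 0.53 on feeds B, K and G (SD, n = 3 each), and it was the only gene of this list with an unadjusted p below 0.05 in the F test over the feeds, which 5.37% of all genes had (limma, adjusted p = 0.729). In the contrast of feed K with feed B, 3 genes of the list had an unadjusted p below 0.05 (Slc5a1, Slc2a5 and Asah2), against 6.31% of all genes. Slc2a5, the fructose carrier, had a range of 5.95-fold over the mice and Slc2a2, the basolateral glucose carrier, one of 4.52-fold. Their r with Fabp6 was -0.78 and -0.82 (exact permutation p = 0.0142 and 0.00612) and their rho -0.60 and -0.67 (exact permutation p = 0.0968 and 0.0589). The r of Slc5a1, Slc15a1 and Asah2 was -0.46, -0.24 and -0.12. Of the 5 genes, 4 were higher in every mouse of feed K than in any of feed B (3 in the series table), against 6.26% of all genes. The median log2 difference was 0.72, compared with 0.05 over all genes.

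Of 15 genes of microvillus structure, 12 had a probe and all 12 were tested. Their median SD was 0.30, compared with 0.29 for all genes detected on every array. Of the 12, 8 stayed within 2-fold, as did 57.9% of those genes. The smallest range was that of Ezr, the ezrin that links actin to the membrane, at 1.28-fold, and 1 gene, the protocadherin Cdhr5 that links microvilli at their tips, had an unadjusted p below 0.05 in the F test, which 5.37% of all genes had (limma, adjusted p = 0.894). Of 12 transcription factors of the enterocyte, 11 were tested. Among them 1, Gata4, which marks the proximal gut, had an unadjusted p below 0.05 in the F test (limma, adjusted p = 0.729). Of all genes, 5.37% had such a p. Hnf4a, a nuclear receptor of the gut epithelium, had a range of 1.82-fold.

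The members were averaged, after each was scaled to a mean of 0 and an SD of 1 over the mice, and the genes detected on all arrays were ranked by their r with that mean. The 4 genes most like it over the 9 mice were Pip5k1b (r = 0.93), Mme (0.93), Uap1 (0.91) and Slc5a11 (0.91). Mme, the neutral endopeptidase neprilysin, is a brush border peptidase of the fixed list. The closest single genes were Gdpd2 for Ace (0.96), Sfxn1 for Treh (0.95) and Gtf2a1 for Mep1a (0.91).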

How the data were processed

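The authors deposited 1 table per array, with the intensity of each spot after background correction and spatial normalization, a signal-to-noise score and a quality flag. The deposited series table, in linear intensity units whose assay normalization is not given in the sources used here, was an alternative. Spots flagged above 5000 were dropped, intensities were quantile normalized over the 9 arrays (arithmetic mean) and log2 transformed, and probes were averaged per gene. Genes detected on 3 or more arrays entered limma 3.58.1 (lmFit and eBayes, R 4.3.3), with Benjamini-Hochberg adjustment over all genes at 0.05. The fit was run on simulated data for feed G minus feed B, with 200 of 9556 genes changed. At a log2 change of 1, it recovered 0 of the 200, with 0 false calls. At log2 changes of 2 and 3, it recovered 148 and 154, with 12 and 10 false calls. Correlations used all 362880 orders of the mice, or 216 within feeds, in Python 3.11.15 with numpy 2.4.6 and scipy 1.17.1, and were adjusted over all 17325441 pairs of genes, or over all genes for Fabp6, not over the members. The genes named are the members, fixed lists of the same membrane and of cell markers, and the genes most like the members. Members and lists were chosen with earlier results of these data known. As alternatives, arrays were scaled to 1 median or the series table was used, with the brightest probe, every probe, failed spots kept, other filters, trend and robust settings, an exact test, feed means subtracted and each array left out in turn. A gene of these lists is not reported here. The number of arrays limits the precision.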

Additional observations from a re-analysis of the deposited data

How the results depend on the processing

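No member passed the feed test after adjustment under any alternative, and the lowest adjusted p among them was between 0.271 and 0.991 (limma, or the exact permutation test). Over all genes, adjusted calls were 0 except with genes detected on all 9 arrays (1 in the F test and 1 for feed G minus feed B) and, with mice left out in turn, from 0 to 3 in the F test and for feed G minus feed B and from 0 to 10 for feed K minus feed B, the highest without mouse 10 of feed B. Unadjusted calls in the F test (518) were 1075 with median scaling, 896 with no filter on detection, 892 with every probe and 378 to 963 with mice left out. For feed K minus feed B (609) they were 1230, 987, 961, 352 with genes detected on all arrays and 392 to 1095. For feed G minus feed B (554) they were 1797, 977, 929, 356 and 418 to 1039, and for feed G minus feed K (438) 672 with no filter, 759 with every probe and 282 to 603. Median scaling and the series table moved the median of all genes to 0.41 and 0.21 (K minus B), 0.53 and 0.30 (G minus B) and 0.11 and 0.07 (G minus K).

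Small differences changed sign. For feed G minus feed K, Enpep was 0.11 with median scaling and 0.15 in the series table. For feed K minus feed B, Mep1a was 0.20 with median scaling. For feed G minus feed B, Mep1b was 0.36 and 0.11, Ace 0.30 and 0.089, and Treh 0.38 and 0.13 in the same order. With mice left out, feed G minus feed K lay between -0.11 and 0.20 for Anpep, -0.21 and 0.048 for Enpep and -0.18 and 1.41 for Mep1a. Feed G minus feed B lay between -0.10 and 0.28 for Dpp4, -0.32 and 0.89 for Mep1a, -0.84 and 0.60 for Ace, -0.46 and 0.27 for Treh and -0.046 and 0.087 for Vil1. Feed K minus feed B lay between -1.05 and 0.55 for Mep1a and -0.012 and 0.71 for Treh. The median SD of the members (0.36) was 0.51 with median scaling and 0.50 in the series table, and the members within 2-fold were 0 and 1. Pairs with an exact permutation p below 0.05 (4) were 9 with median scaling, 1 with feed means subtracted and 1 to 4 with mice left out. The shares over all pairs of genes were computed only for the quantile-normalized values of all mice, so these counts have none beside them. The rank correlation with Fabp6 became 0.22 for Anpep, 0.20 for Enpep, 0.10 for Mep1b and 0.20 for Vil1 with median scaling, and 0.20 for Enpep and 0.067 for Vil1 in the series table. With mice left out it lay between -0.64 and 0.024 for Anpep, -0.50 and 0.048 for Enpep and -0.24 and 0.17 for Vil1. The alternatives for Fabp6 and the ratio to villin were chosen after seeing the data. The cause of these changes was not tested. No paired analysis was possible, because each mouse was on 1 feed and 1 array and no label matches mice between feeds.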
